A study of Mus musculus with 12 samples.

Results

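Activation of splenic CD4+ T cells from control mice was followed over the first days of culture, as the change of every gene's RNA from day 0 to day 2. The comparison took the 3 libraries of the control (CTL) group labelled day 2 and the 3 labelled day 0, which are 6 of the 12 libraries of the series, and every gene that passed a filter on low counts in those 6. All 6 came from wild-type BALB/c mice, 18 weeks old, that carried no ligature. The day 0 cells were left uncultured, and the day 2 cells had been cultured with IL-2 (10 ng/mL), anti-TCRβ antibody (1 µg/mL) and anti-CD28 antibody (1 µg/mL), as the labels give the doses. The methods of the study give other concentrations of IL-2 and of anti-TCRβ antibody, so the doses are uncertain. The treatment labels also differ within the day 2 group, where anti-CD29 stands in place of anti-CD28 for library 93 and anti-CD30 for library 97. The remaining 6 libraries came from mice with ligature-induced periodontitis (LIP) on the same days and serve here as a repeat of the comparison, in a test of whether the change differed between the groups and in checks over all 12 libraries.

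A resting CD4+ T cell is small, divides rarely and recirculates between blood and lymphoid organs. It is activated when its T cell receptor (TCR) and the costimulatory receptor CD28 are engaged together. Calcium, Ras and protein kinase C signals then switch on NFAT, AP-1 and NF-kB, the cell secretes IL-2, and the high-affinity IL-2 receptor carries that signal onward through JAK kinases and STAT5. Within a day the cell enlarges, takes up glucose and amino acids, builds ribosomes and enters the cell cycle, while genes of the resting programme, several of them targets of FOXO1 and KLF2, are shut off. Effector cytokines and the lineage factors of helper subsets follow, together with inhibitory receptors that restrain the response.

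The design sets some limits. No library of cells cultured without antibodies was analysed here, so the effects of the antibodies, of IL-2, of 2 days in culture and of death or outgrowth of some of the cells cannot be told apart. In bulk RNA, fewer cells of a type and less RNA per cell cannot be told apart either. Levels are given in CPM, the counts as a share of a library's total after scaling by edgeR's TMM factors, so each is relative to the rest of the library, and RNA per cell was not measured. The day 0 numbers (88, 89 and 94) and the day 2 numbers (92, 93 and 97) share none. Differences between what the numbers stand for therefore cannot be told apart from the day. Some numbers recur in the LIP group, 92, 93 and 94 on day 0 and 97 on day 2. Nothing in the labels says that each number is a separate mouse, so the p-values measure the spread between libraries, which may in part be technical. A change written as running from one CPM value to another gives the means ± SD of the 3 libraries of each day. Values for single libraries are given in the order 88, 89 and 94 on day 0 and 92, 93 and 97 on day 2.

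The day 0 libraries held between 6249018 and 7845676 counts and the day 2 libraries between 8993191 and 9842586. A count of 3, the limit that a count of 0 allows in a library, equalled between 0.362 and 0.457 CPM on day 0 and between 0.318 and 0.358 CPM on day 2, and it covers counting error only. The first principal component of the 6 libraries held 88.4% of the variance and separated the days. The series is described as made from male mice, but across its 12 libraries Xist was counted between 14097 and 45202 times, Xist being the RNA of the inactive X chromosome, while the Y-linked genes Ddx3y, Eif2s3y and Uty had at most 0, 1 and 4 counts. Kdm5d, a Y-linked gene with a close copy on the X, had between 62 and 188. The sex in the labels therefore goes against these counts in all 12 libraries, and no result below uses it.

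The T cell label was checked against markers. Cd3e, a chain of the TCR complex, was at 478, 524 and 469 CPM on day 0 and 486, 583 and 589 CPM on day 2 (adjusted p = 0.159, or 0.0359 without library 92). Cd4, the coreceptor the cells were purified for, was at 618, 629 and 586 CPM on day 0 and 511, 644 and 485 CPM on day 2 and did not pass the test (adjusted p = 0.23), although it was called lower when the libraries were scaled by their upper quartile or library 93 was left out (adjusted p = 0.037). Cd8a, the coreceptor of the other T cell lineage, had 9, 4 and 4 counts on day 0 and 1, 2 and 10 counts on day 2. Other cell types were close to absent, with some exceptions. Among 18 B cell markers, Ms4a1, which encodes CD20, had 3, 2 and 4 counts on day 0 and 0, 3 and 52 counts on day 2, and Pax5 had 1, 0 and 1 counts on day 0 and 0, 1 and 35 counts on day 2. These 2 markers were thus highest in library 97 of day 2 and at or near 0 in the others. Of the 18, 10 passed the filter, and of these 2 were higher on day 2, 4 lower and 4 did not pass the test. The higher ones were Ebf1, a B cell factor, with 1, 0 and 0 counts on day 0 and 13, 16 and 21 counts on day 2, and H2-Ab1, and the lower ones were Ighm, Cr2 (-2.75), Bank1 (-1.54) and Igkc (-2.14). The adjusted p of Bank1 was 0.0616 and 0.0617 without library 92 or 93, and that of Igkc 0.123, 0.0932 and 0.071 without library 94, 92 or 93. Without library 92 or 93 of day 2, 3 were higher and 2 lower, without library 94 of day 0 3 and 3, and without library 97 of day 2 2 and 6. The summed level of the list ranged between 129 and 176 CPM on day 0 and between 42.3 and 146 CPM on day 2, and on day 0 it was mostly that of Ighm, which went from 117 ± 9.36 to 27.0 ± 13.4 CPM. H2-Ab1, an MHC class II chain, rose in all 3 day 2 libraries, with 10, 11 and 14 counts on day 0 and 118, 111 and 130 counts on day 2, so its rise was not limited to library 97. The class II chains H2-Aa, with 4, 2 and 7 counts on day 0 and 3, 3 and 110 counts on day 2, and H2-Eb1, with 6, 1 and 6 counts on day 0 and 12, 9 and 79 counts on day 2, were high in library 97 and not in the other day 2 libraries. Of 21 myeloid and dendritic markers only 4 passed the filter, and the summed level of the list ranged between 7.96 and 23.4 CPM on day 0 and between 4.51 and 6.47 CPM on day 2. The granule enzyme Mpo had 2, 2 and 40 counts on day 0 and 0, 0 and 2 counts on day 2, with most of its counts in library 94. Of 10 markers of CD8 T and NK cells, 5 passed the filter and 3 were lower on day 2, or 6 of 7 without library 89 and 5 of 7 without library 92, 93 or 97, and the NK receptor Ncr1 had 18, 8 and 19 counts on day 0 and 1, 0 and 1 counts on day 2. Of 13 erythroid and platelet, 11 stromal and endothelial and 14 pancreatic acinar markers, 1 each passed the filter. These were Itga2b (from 2.59 ± 0.437 to 0.605 ± 0.158 CPM) and Pecam1 (from 179 ± 20.5 to 67.6 ± 9.17 CPM), both lower on day 2, and the trypsinogen gene Prss2, with 0, 0 and 0 counts on day 0 and 84, 84 and 45 counts on day 2. The endothelial markers Cdh5 and Kdr, removed by the filter, had 1, 2 and 5 and 1, 0 and 5 counts on day 0. The source of the Pecam1 RNA was not tested, and it is not read as a trace of endothelium. Plasma cell markers were split, with the joining chain Jchain lower (from 3.56 ± 1.99 to 0.261 ± 0.171 CPM) and the proteoglycan Sdc1 higher (1, 0 and 2 counts on day 0 and 45, 57 and 18 counts on day 2). Whether these markers of other cells bear on any other gene was not tested.

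**Figure D1:**
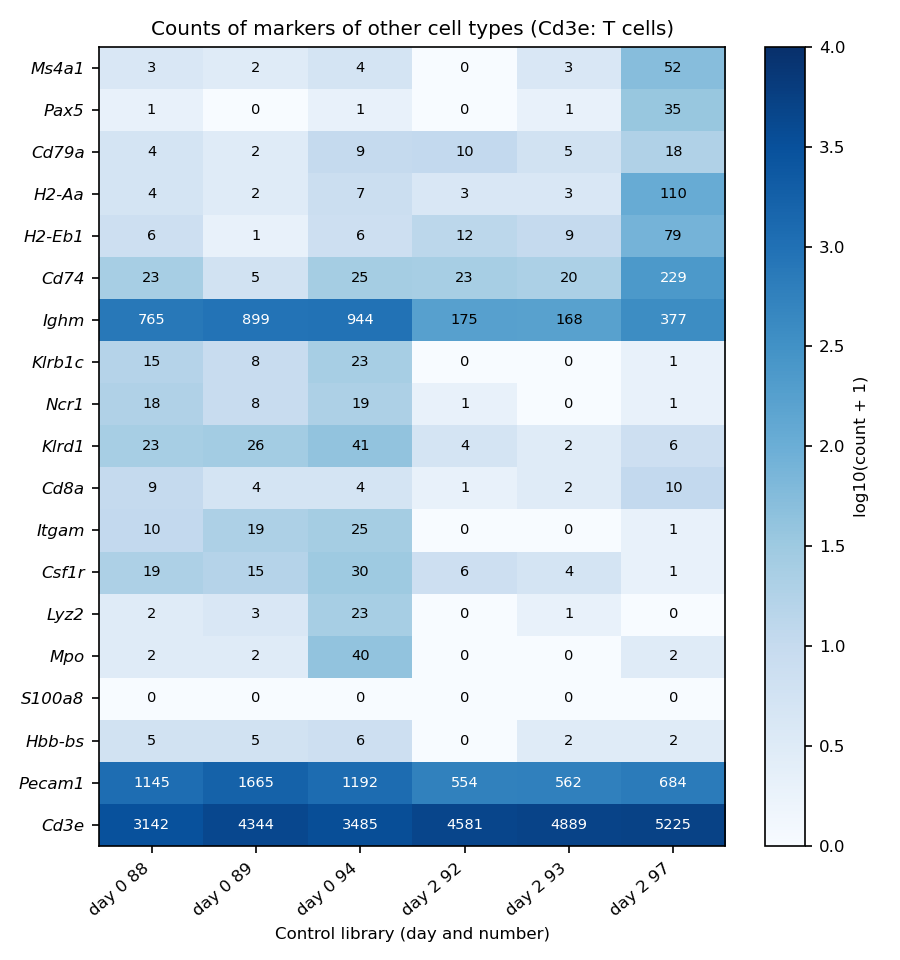
Read counts of markers of B cells, NK and CD8 T cells, myeloid cells, red cells and endothelium, with Cd3e for T cells, in each of the 6 control libraries (columns, by day and number), shaded by log10(count + 1). Pax5 and Ms4a1 reached 35 and 52 counts in library 97 of day 2 and stayed at 4 or below in the other 5.

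Of 55414 gene records, 14621 passed the filter and were tested by the quasi-likelihood method of edgeR, with p-values adjusted by Benjamini and Hochberg's procedure. At an adjusted p under 0.05, 5287 genes were higher on day 2, which is 36.2% of those tested, and 5068 were lower, which is 34.7%. Changes over 2-fold were called for 3068 higher genes (21.0%) and 2701 lower genes (18.5%), and changes over 16-fold for 434 and 124 genes. The 3 values of one day lay wholly above the 3 of the other in 10934 genes (74.8%). Against so wide a change, a share of a gene list is read beside these percentages, as a description, since a low gene can pass the filter through one day alone. The median log2 fold change over all tested genes was -0.01. The balance of rises and falls depended on the scaling. Higher genes made up 51.1% of those called under TMM, 39.1% under upper quartile scaling (4183 higher and 6510 lower) and 43.4% with library size alone (4570 and 5972), since these scalings moved the median of all genes by -0.27 and -0.17 on the log2 scale. Changes of that size are therefore not read as a direction below unless the scalings share it. An exact permutation test over 3 against 3 libraries cannot give a p below 0.1, so summed levels are given as ranges.

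**Figure D2:**
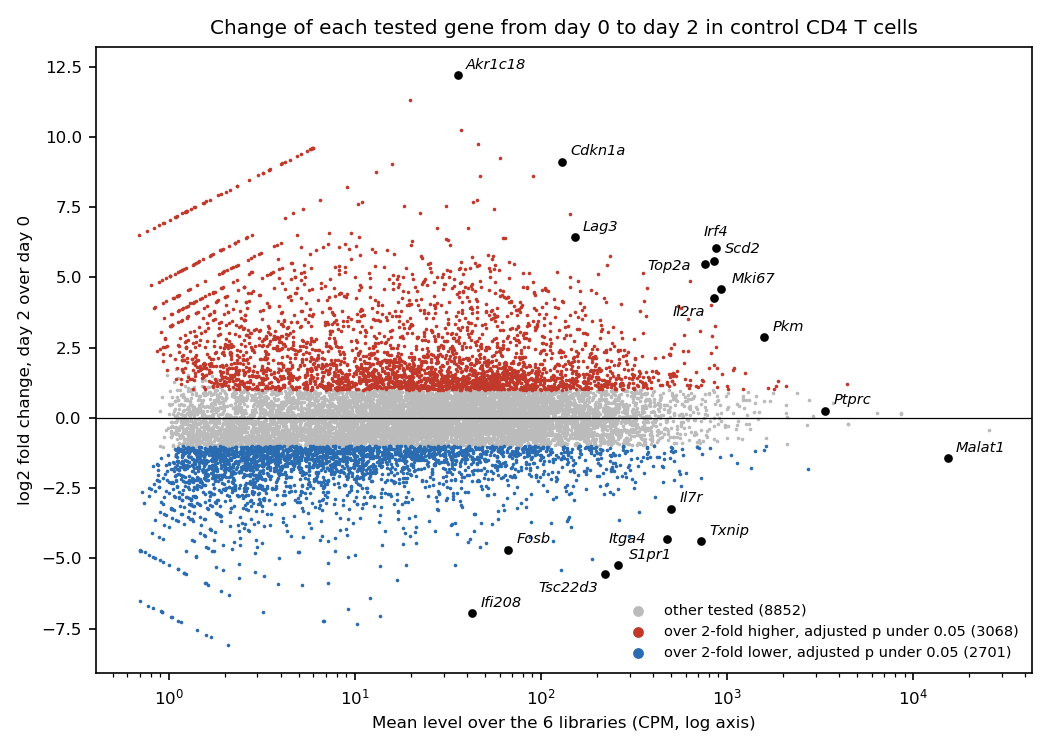
Log2 fold change of day 2 over day 0 (vertical axis) against the mean level over the 6 control libraries in CPM (horizontal log axis), with 1 point for each tested gene and selected genes named. The 3068 genes that rose over 2-fold are red and the 2701 that fell over 2-fold are blue, and well-expressed genes are found at both extremes, from Irf4 to S1pr1.

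The kinds of transcript moved unequally. Of 11590 protein-coding genes tested, 24.3% rose over 2-fold and 13.5% fell over 2-fold. Of 1185 long noncoding RNAs, 9.11% rose and 40.5% fell by that much, with a median log2 fold change of -0.81. Malat1, an abundant nuclear RNA, took between 2.24% and 2.54% of all counts on day 0 and between 0.619% and 0.920% on day 2. Histone genes together went the other way, from between 0.111% and 0.241% to between 0.840% and 1.14% of counts. Messenger RNAs of cytosolic ribosomal proteins went from between 3.13% and 4.05% to between 5.19% and 5.79%.

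The receptor for the cytokine in the culture changed by 1 of its chains far more than by the others. Il2ra encodes CD25, the chain that gives the IL-2 receptor its high affinity, and lies at chr2:11647618-11698004 on the plus strand of GRCm39. It was counted at 92.2, 78.3 and 79.4 CPM on day 0 and 1856, 1705 and 1289 CPM on day 2, a 19.4-fold rise (log2 fold change 4.28, SE 0.16, adjusted p = 6.26e-09). All day 2 values were more than 10 times any day 0 value. The signalling chains moved less. Il2rg, the common gamma chain, rose from 331 ± 35.7 to 556 ± 73.0 CPM (log2 fold change 0.75), and Il2rb, the beta chain, was at 278, 169 and 305 CPM on day 0 and 315, 312 and 249 CPM on day 2, with values that overlapped between the days (adjusted p = 0.308). Il7r, the receptor chain for the survival cytokine IL-7, went the opposite way and was at 830.2, 847 and 1052 CPM on day 0 and 131, 80.0 and 80.2 CPM on day 2 (log2 fold change -3.23, SE 0.19, adjusted p = 1.13e-07). CD25 RNA was thus below that of the IL-7 receptor in every day 0 library and above it in every day 2 library, on the CPM scale, which is not corrected for transcript length.

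Other cytokine receptors followed both directions. Of 23 interleukin and cytokine receptor genes tested, 7 rose and 12 fell, and their median log2 fold change was -0.77. The receptors for IL-12 rose: Il12rb1 went from 8.71 ± 3.10 to 204 ± 8.07 CPM (log2 fold change 4.56) and Il12rb2 from 7.35 ± 2.72 to 131 ± 20.8 CPM (4.17). Il1r2, a decoy receptor for IL-1, rose from 0.447 ± 0.198 to 11.3 ± 3.02 CPM (4.61), and Il4ra rose from 328 ± 28.8 to 483 ± 21.7 CPM (0.56). Those that fell included both chains for IL-18, with Il18r1 at 118, 99.4 and 158 CPM on day 0 and 5.30, 4.65 and 5.18 CPM on day 2 (log2 fold change -4.63, SE 0.20, adjusted p = 1.18e-08) and Il18rap going from 35.0 ± 13.6 to 1.54 ± 0.335 CPM (-4.49). The IL-6 receptor chains Il6ra (-1.60) and Il6st (-1.25), the TGF-beta receptor Tgfbr2 (-1.81), Il17ra (-1.48) and Ifngr1 (-1.77) fell as well. The summed level of the list, between 4052 and 4299 CPM on day 0 and between 3899 and 4598 CPM on day 2, overlapped between the days.

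Downstream of these receptors, 13 of 20 genes of the JAK, STAT, SOCS and Pim families rose and 2 fell. Cish, a STAT5 target that dampens IL-2 signalling, was at 62.6, 53.4 and 98.8 CPM on day 0 and 419, 386 and 331 CPM on day 2 (log2 fold change 2.40). Its relatives Socs1 (1.53) and Socs2 (1.24) also rose, while Socs3 did not pass the test, at 55.7, 56.2 and 46.7 CPM on day 0 and 70.6, 54.0 and 29.1 CPM on day 2. Stat5a rose from 142 ± 7.93 to 382 ± 18.5 CPM (1.42), whereas Stat5b, its close relative, was at 207, 205 and 202 CPM on day 0 and 208, 197 and 188 CPM on day 2 (adjusted p = 0.607). Among the kinases, Jak2 rose from 146 ± 9.89 to 892 ± 223 CPM (2.62) and Jak3, which pairs with the common gamma chain, rose from 120.0 ± 9.22 to 250.5 ± 7.34 CPM (1.06), but Jak1 fell from 1035 ± 69.3 to 429 ± 14.7 CPM (-1.27). The kinase genes Pim1, Pim2 and Pim3, known targets of STAT5, had log2 fold changes of 0.96, 1.33 and 1.28.

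Costimulatory genes moved in both directions, with larger rises than falls. Of 24 costimulatory and TNF superfamily genes tested, 13 rose, all over 2-fold, and 6 fell. Tnfrsf9, which encodes 4-1BB, was at 14.2, 7.48 and 9.56 CPM on day 0 and 508, 482 and 345 CPM on day 2 (log2 fold change 5.44, SE 0.23, adjusted p = 1.15e-08). Tnfrsf4, which encodes OX40, was at 17.5, 11.6 and 16.6 CPM on day 0 and 325, 383 and 361 CPM on day 2 (log2 fold change 4.56, SE 0.15, adjusted p = 3.93e-09). These receptors prolong division and survival of activated T cells, and their values on the 2 days were far apart. Tnfrsf8 (CD30) rose from 1.3 ± 0.602 to 30.7 ± 9.70 CPM (log2 fold change 4.59), Tnfrsf18 (GITR) from 31.4 ± 7.17 to 197 ± 6.59 CPM (2.65) and Icos, the inducible costimulator, from 49.1 ± 18.0 to 296 ± 85.8 CPM (2.60). Tnfsf8, the ligand of CD30, also called CD153, was at 94.8, 89.2 and 111 CPM on day 0 and 1286, 970.3 and 1152 CPM on day 2 (log2 fold change 3.53, SE 0.14, adjusted p = 8.38e-09). Cd28 itself rose from 421 ± 36.6 to 934 ± 46.4 CPM (1.15). The 6 that fell were Ltb, a lymphotoxin chain (-1.14), Tnfsf10, which encodes TRAIL (-1.24), Tnfrsf25 (-1.26), Cd86 (-1.99), Fasl, the Fas ligand (-0.83), and Cd27 (-0.52), whose adjusted p was 0.0709, 0.0829 and 0.0639 without library 89, 92 or 93. Cd40lg, the helper ligand for B cells, was at 56.2, 60.7 and 43.4 CPM on day 0 and 63.1, 57.9 and 46.8 CPM on day 2 and did not pass the test (adjusted p = 0.707).

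Genes of inhibitory receptors, listed with some ligands, were split. Of 16 tested, 8 rose, each over 2-fold, 4 fell and 4 did not pass the test. Lag3, which binds MHC class II, had the largest rise of the list and was at 3.81, 2.17 and 4.44 CPM on day 0 and 285, 341 and 273 CPM on day 2 (log2 fold change 6.45, SE 0.20, adjusted p = 3.56e-09). Pdcd1, which encodes PD-1, was at 14.6, 7.36 and 13.9 CPM on day 0 and 74.4, 89.1 and 73.9 CPM on day 2 (log2 fold change 2.74, SE 0.21, adjusted p = 6.04e-07). The checkpoint receptor Tigit rose from 5.02 ± 2.92 to 108 ± 19.2 CPM (log2 fold change 4.46), the ligand gene Cd200 from 8.29 ± 3.23 to 194 ± 3.68 CPM (4.55), Ctla4 from 46.9 ± 18.3 to 161 ± 49.4 CPM (1.78) and Btla from 102 ± 12.8 to 259 ± 26.3 CPM (1.35). The count takes in both ligands of PD-1, which rose, Cd274 (PD-L1) from 41.2 ± 7.59 to 214 ± 5.33 CPM and Pdcd1lg2 (PD-L2) from 1.65 ± 0.397 to 44.2 ± 3.19 CPM. Those that fell were Cd96 (-2.06), Vsir, which encodes VISTA (-1.27), Cd200r1 (-0.66) and Klrg1, a receptor of terminally differentiated effector cells, which was low on both days at 3.20, 1.69 and 3.77 CPM on day 0 and 0.742, 0.119 and 0.451 CPM on day 2 (log2 fold change -2.64, SE 0.52, adjusted p = 8.92e-04). Tox, a factor tied to exhaustion, was at 81.3, 71.5 and 65.3 CPM on day 0 and 51.5, 74.0 and 88.1 CPM on day 2 (adjusted p = 0.884).

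Many cytokine genes were near the limit of detection before culture. Of 27 listed, 9 did not pass the filter, 15 rose, 1 fell and 2 did not pass the test. Several, such as Il9 (0, 0 and 0 counts on day 0 and 46, 19 and 21 counts on day 2), passed the filter only through their day 2 counts and so had to be higher there, and the count of rises is a description only. Il2 was at 1.22, 0.724 and 0.404 CPM on day 0 and 64.1, 68.6 and 54.8 CPM on day 2 (log2 fold change 6.33, SE 0.23, adjusted p = 6.91e-09). Il21, which acts on B cells, rose from 2.31 ± 1.80 to 35.9 ± 27.5 CPM (4.01), and Lif from 0.725 ± 0.187 to 80.1 ± 18.3 CPM (6.77). Il13, a cytokine of type 2 helper cells, had 0, 1 and 0 counts on day 0 and 153, 124 and 68 counts on day 2, a ratio of levels of 288 (95% counting interval 51.4 to 11400.0). Il4 rose from 0.433 ± 0.391 to 8.52 ± 1.11 CPM (4.34), Il10 was at 0.609, 0.362 and 0.269 CPM on day 0 and 42.1, 21.4 and 11.9 CPM on day 2 (5.91), and Ifng, the cytokine of type 1 helper cells, was at 5.33, 2.17 and 2.42 CPM on day 0 and 40.7, 28.9 and 16 CPM on day 2 (log2 fold change 3.14, SE 0.39, adjusted p = 2.83e-05). Cytokines of type 1 and type 2 helper cells thus rose in the same libraries. Those of type 17 cells did not pass the filter, with 0, 1 and 0 counts on day 0 and 3, 2 and 0 counts on day 2 for Il17a. Tnf rose from 19 ± 2.09 to 65.3 ± 5.82 CPM, Csf1 from 18.4 ± 4.51 to 219.8 ± 37.3 CPM and Tgfb1 from 100.5 ± 3.82 to 270.3 ± 43.7 CPM. The chemokines Ccl3 and Ccl4 also rose, the latter with 1, 0 and 1 counts on day 0 and 86, 58 and 59 counts on day 2, but Ccl5, a chemokine of memory and effector cells, fell from 18.7 ± 11.9 to 3.25 ± 1.22 CPM (-2.49). Il24, which the filter removed, had 0, 0 and 0 counts on day 0 and 75, 20 and 9 counts on day 2.

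The transcription factors that carry the receptor signal were changed in opposite directions. Of 25 immediate early and AP-1 genes tested, 12 rose and 7 fell, with a median log2 fold change of 0.16, but under upper quartile scaling 11 rose and 9 fell and the median was -0.11, and without library 94 of day 0 it was -0.045 (11 rose and 10 fell). The EGR and NR4A families, which respond to calcium and Ras signals, were higher: Egr2 was at 16.6, 12.5 and 14.4 CPM on day 0 and 224, 239 and 208 CPM on day 2 (log2 fold change 3.95, SE 0.13, adjusted p = 3.56e-09), Egr1 rose from 53.4 ± 5.19 to 263 ± 32.7 CPM and Egr3 from 19.5 ± 3.69 to 89.6 ± 11.3 CPM. Nr4a1, which encodes Nur77, a reporter of TCR signal strength, was at 43.8, 40.4 and 18.2 CPM on day 0 and 129, 152 and 104 CPM on day 2 (log2 fold change 1.91, SE 0.26, adjusted p = 5.96e-05), Nr4a3 rose from 23.7 ± 2.17 to 180.1 ± 22.3 CPM, and Nr4a2 rose from 1.12 ± 0.798 to 48.7 ± 14 CPM. Fosl1 had 0, 0 and 0 counts on day 0 and 98, 132 and 83 counts on day 2, at least 25.9-fold higher, and Fosl2 rose from 42.7 ± 14.8 to 382 ± 113 CPM. Batf, an AP-1 partner of IRF4, was at 15.1, 11.3 and 17.5 CPM on day 0 and 50.0, 53.4 and 42.0 CPM on day 2 (log2 fold change 1.73, SE 0.16, adjusted p = 3.61e-06). Atf3, a stress-responsive member of the ATF family, was at 0, 0.121 and 0.404 CPM on day 0 and 135, 108 and 116 CPM on day 2 (log2 fold change 9.27, SE 0.29, adjusted p = 3.56e-09).

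The classical members Fos, Fosb and Jun, in contrast, were lower on day 2. Fos was at 165, 131 and 52.1 CPM on day 0 and 16.4, 18.4 and 13.3 CPM on day 2 (log2 fold change -2.85), Jun at 293, 318 and 165 CPM on day 0 and 20.9, 27.4 and 19.8 CPM on day 2 (-3.51) and Fosb at 199, 121 and 65.8 CPM on day 0 and 6.57, 5.96 and 2.37 CPM on day 2 (-4.68). The day 0 libraries differed among themselves in these genes, with library 94 lowest in all 3 and library 88 highest in Fos and Fosb. The phosphatase gene Dusp1 (-3.16) and the RNA-decay factor Zfp36 (-1.10) fell with them. Cd69, an early surface marker of activation, was at 391, 297 and 220.4 CPM on day 0 and 328, 346 and 307 CPM on day 2 and did not pass the test (adjusted p = 0.568), and its day 0 values were spread in the same order, 88 over 89 over 94. Junb, at 443, 375 and 156 CPM on day 0 and 284, 335 and 216 CPM on day 2 (adjusted p = 0.517, or 0.0126 without library 94), had that order too. The cause of this spread among the day 0 libraries was not tested.

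NF-kB genes were split, with 9 of 19 higher and 5 lower. The precursors Nfkb1 (from 255 ± 8.92 to 746 ± 135 CPM) and Nfkb2 (from 42.3 ± 4.13 to 214 ± 10.0 CPM) rose, as did Relb (1.45), Rel (1.11) and Rela (0.76). Tnfaip3, which encodes the inhibitor A20, was at 841, 578 and 169 CPM on day 0 and 137, 112 and 78.0 CPM on day 2 (-2.28), and the kinase genes Ikbkb (-1.60) and Ikbke (-1.62) fell. Under upper quartile scaling the list counted 8 higher and 8 lower, so it had no direction as a whole.

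Of the TCR complex and its proximal signalling, 10 of 29 genes rose, 8 fell and 11 did not pass the test. Over all genes tested, 36.2% were higher and 34.7% lower. Of the receptor chains, Cd3d rose from 171 ± 29.5 to 315 ± 31.0 CPM (log2 fold change 0.88) and Cd3g from 217 ± 8.20 to 269 ± 24.9 CPM (0.31, not called under upper quartile scaling or, with an adjusted p of 0.0573, without library 88), while Trac, the alpha constant region, was at 162, 187 and 142 CPM on day 0 and 164, 174 and 157 CPM on day 2 (adjusted p = 0.946). Lck, the kinase that starts the signal, was at 477, 526 and 439.5 CPM on day 0 and 439.9, 479 and 464 CPM on day 2 (adjusted p = 0.585). Among adaptors and enzymes, Malt1, the paracaspase that links the TCR to NF-kB, rose from 365 ± 33.4 to 1239 ± 271 CPM (1.76), Zap70 from 117 ± 5.13 to 241 ± 15.1 CPM (1.04), Lcp2, which encodes SLP-76, from 314 ± 23.6 to 726 ± 33.4 CPM (1.21), and the phosphatase Ptpn22 from 144 ± 15.3 to 336 ± 48.1 CPM (1.22). Txk, a Tec-family kinase of resting T cells, fell from 257 ± 44.9 to 20.1 ± 2.27 CPM (-3.67). Themis, which tunes receptor signalling (-2.72), the adaptor Grap2 (-2.17) and the Ras activator Rasgrp1 (-1.72) fell too. The list's split turned with the scaling, to 6 higher and 13 lower under upper quartile and 7 and 12 with library size alone, and without library 88 of day 0 it was 8 and 8. Among identity markers, Cd5, a negative regulator of the TCR, rose from 241 ± 5.32 to 936 ± 69.2 CPM (1.96), Cd6 rose from 272 ± 16.2 to 760.0 ± 76.5 CPM, and Thy1 fell from 292 ± 18.7 to 133 ± 41.8 CPM (-1.13).

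**Figure D3:**
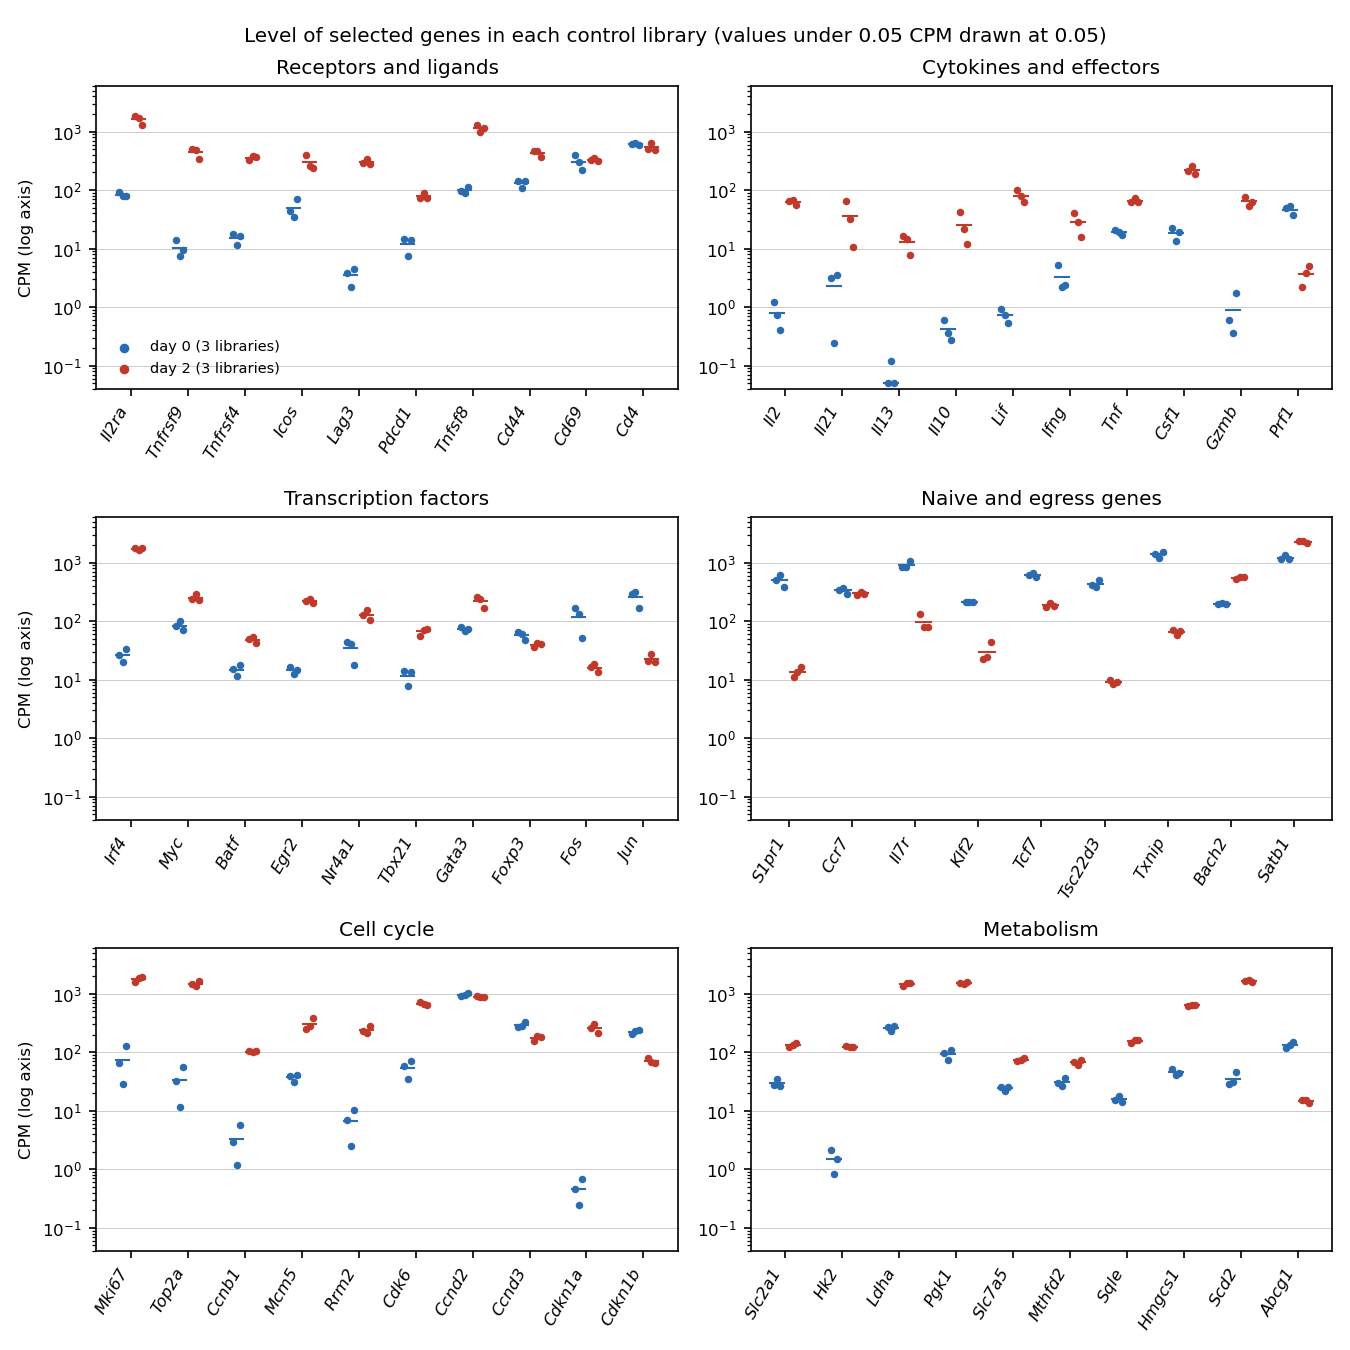
Level of selected genes in each of the 3 day 0 (blue) and 3 day 2 (red) control libraries, in CPM on a log axis, with a line at each mean, in 6 panels by role. Il2ra, Irf4, Lag3 and Cdkn1a are separated by an order of magnitude or more, the naive and egress genes S1pr1, Tsc22d3 and Txnip are reversed, and Cd4, Cd69 and Ccr7 overlap.

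Most genes of the resting programme fell. Of 26 naive and quiescence genes, 20 were lower and 4 higher, with a median log2 fold change of -1.50, against 34.7% lower over all genes. The summed level of the list ranged between 14019 and 14995 CPM on day 0 and between 7637 and 7942 CPM on day 2. Tsc22d3, which encodes GILZ and is a target of FOXO and of glucocorticoids, was at 414, 378 and 505 CPM on day 0 and 10.1, 8.59 and 9.01 CPM on day 2 (log2 fold change -5.55, SE 0.15, adjusted p = 2.71e-09). Txnip, which restrains glucose uptake, was at 1412, 1199.6 and 1535 CPM on day 0 and 71.7, 58.2 and 67.9 CPM on day 2 (log2 fold change -4.39, SE 0.14, adjusted p = 3.56e-09). Klf2, the factor that maintains quiescence and drives egress genes, was at 217, 211 and 209 CPM on day 0 and 22.5, 24 and 43.6 CPM on day 2 (log2 fold change -2.82, SE 0.21, adjusted p = 5.47e-07). The factors of naive T cells Tcf7 (from 618 ± 44.3 to 187 ± 13.3 CPM, log2 fold change -1.73) and Lef1 (from 556 ± 95.2 to 212 ± 20.8 CPM, -1.39) fell as well, as did Pik3ip1, an inhibitor of PI3K (-3.70), Klf3 (-2.54), Igfbp4 (-2.53) and the antiproliferative genes Btg1 (-1.19) and Btg2 (-1.19).

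Against the list's direction, Bach2, a repressor that limits effector differentiation, rose from 199 ± 8.01 to 549.6 ± 28.1 CPM (log2 fold change 1.47), and Satb1, a chromatin organizer, rose from 1225 ± 131 to 2294 ± 104 CPM (0.90). Dapl1 (0.60) and Slfn2 (0.30) also rose, though neither passed the test under upper quartile scaling or with library size alone. Without library 88, 94 or 93 the adjusted p of Dapl1 was 0.0776, 0.0675 and 0.0961, and without library 88, 89 or 97 that of Slfn2 was 0.105, 0.134 and 0.16. Ccr7, the chemokine receptor for entry to lymph nodes, was at 348, 377 and 295 CPM on day 0 and 283, 321 and 296 CPM on day 2 and did not pass the test (adjusted p = 0.154, or 0.0467 without library 94).

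Most receptors for trafficking fell too. Of 14 chemokine and egress receptors tested, 10 fell and 3 rose. S1pr1, the sphingosine phosphate receptor that cells need to leave lymphoid organs, at chr3:115504071-115508721 on the minus strand, was at 512, 623 and 388 CPM on day 0 and 10.9, 13.5 and 16.2 CPM on day 2 (log2 fold change -5.23, SE 0.21, adjusted p = 8.85e-09). Its day 2 values were below 5% of its day 0 values, the sharpest fall of the list. Cxcr4 (from 146 ± 42.0 to 19.8 ± 5.19 CPM), Ccr9, the gut homing receptor (from 34.0 ± 2.32 to 2.23 ± 0.564 CPM), Ccr2 (from 48.2 ± 21.6 to 7.80 ± 2.69 CPM), Cxcr6 (from 54.3 ± 16.1 to 11.7 ± 5.66 CPM) and Cxcr3 (from 30.5 ± 12.0 to 7.70 ± 1.88 CPM) also fell. Those that rose included Ccr4 (from 24.2 ± 13.4 to 425 ± 54.8 CPM, log2 fold change 4.14) and Ccr8 (from 1.59 ± 0.537 to 44.9 ± 14 CPM, 4.82). Ccr4 and Ccr8 mark type 2 helper and regulatory cells. Of 16 integrin and adhesion genes, 10 fell and 4 rose. Itga4, the alpha chain of the integrins that bind VCAM-1 and MAdCAM-1, fell from 902 ± 38.5 to 45.8 ± 6.80 CPM (-4.30), and its partners Itgb7 (-2.06) and Itgb1 (-0.73, not called without library 88, with an adjusted p of 0.0532) fell with it. Itga1, a collagen-binding integrin chain, had 103, 64 and 130 counts on day 0 and 0, 0 and 2 counts on day 2. Cd44, a hyaluronan receptor of activated and memory cells, was at 143, 107 and 140.4 CPM on day 0 and 459.6, 468 and 361 CPM on day 2 (log2 fold change 1.73, SE 0.14, adjusted p = 1.04e-06), and Itgav (1.42), Icam1 (1.28) and Itgal (0.47, not called under upper quartile scaling, with an adjusted p of 0.068) were the others that rose.

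RNA of cell cycle genes was higher for most genes of each stage. Of 20 genes of the G1 machinery, 16 rose and 2 fell, or 15 and 4 under upper quartile scaling and with library size alone. Myc, the driver of growth, was at 82.0, 99.2 and 71.8 CPM on day 0 and 235, 291 and 231 CPM on day 2 (log2 fold change 1.58, SE 0.14, adjusted p = 1.71e-06). Cdk6 rose from 54.9 ± 18.7 to 675 ± 38.6 CPM (log2 fold change 3.63), Cdk4 from 59.7 ± 1.3 to 241 ± 38.1 CPM (2.01), Ccne1 from 4.86 ± 0.824 to 43.7 ± 9.05 CPM (3.17) and Ccne2 from 6.99 ± 1.59 to 64.6 ± 9.77 CPM (3.21). The D cyclins behaved otherwise. Ccnd2, the most abundant, was at 933, 940.0 and 1034 CPM on day 0 and 913, 889.9 and 889.5 CPM on day 2 (adjusted p = 0.29), while Ccnd3 fell from 291 ± 29.7 to 176 ± 16.8 CPM (-0.73) and Ccnd1 from 5.71 ± 0.2 to 0.751 ± 0.136 CPM (-2.90). The E2F factors rose, from the activators E2f1 (3.67) and E2f3 (3.64) to the repressors E2f7 (5.20) and E2f8 (5.02). Cdkn1b, which encodes p27, the inhibitor that holds T cells in quiescence, was at 205, 234 and 243 CPM on day 0 and 79.1, 67.4 and 65.2 CPM on day 2 (log2 fold change -1.69, SE 0.11, adjusted p = 2.11e-07). It was 1 of 5 inhibitors tested, and the other 4 rose, among them Cdkn2c (2.77) and Cdkn3 (2.55).

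All 53 genes of DNA replication and nucleotide synthesis rose, 51 of them over 2-fold, with a median log2 fold change of 2.33 and a summed level that ranged between 1712 and 1872 CPM on day 0 and between 7645 and 9934 CPM on day 2. Mcm5, a subunit of the replicative helicase, was at 39.7, 31.7 and 41.6 CPM on day 0 and 251, 283 and 385 CPM on day 2 (log2 fold change 3.03, SE 0.17, adjusted p = 7.44e-08). Rrm2, the regulated subunit of ribonucleotide reductase, was at 7.00, 2.53 and 10.2 CPM on day 0 and 228, 211 and 277 CPM on day 2 (log2 fold change 5.20, SE 0.31, adjusted p = 1.02e-07). Mcm10, a helicase loading factor (from 1.81 ± 0.906 to 102 ± 15.8 CPM), and Cdc6 (from 2.16 ± 1.66 to 107 ± 15.1 CPM) had the largest rises of the list. Uhrf1, which guides Dnmt1 to newly copied DNA, rose from 11.4 ± 4.99 to 394 ± 67.3 CPM, and Dnmt1 itself from 198 ± 12.3 to 632 ± 84.5 CPM. All 51 replication-dependent histone genes tested rose over 2-fold, with a median of 3.25 (4.11 without library 94 of day 0), and of these H2bc6 went from 79.3 ± 45.5 to 553 ± 59.6 CPM and H3c15 from 10.5 ± 9.57 to 305 ± 75.7 CPM. The histone genes are near-identical copies, so reads could be split among them and single members are uncertain. Of 27 genes of homologous recombination and the Fanconi pathway, 23 rose and 0 fell, among them Brca1 (from 9.04 ± 1.89 to 149 ± 20.2 CPM) and Rad51ap1 (from 0.984 ± 0.945 to 29.5 ± 5.45 CPM), and 4 did not pass edgeR's test.

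All 56 mitotic genes rose, 55 of them over 2-fold, with a median log2 fold change of 4.57. Their summed level ranged between 773 and 1164 CPM on day 0 and between 9104 and 10582 CPM on day 2. Mki67, which encodes the proliferation marker Ki-67, was at 64.5, 28.7 and 129 CPM on day 0 and 1579.8, 1846 and 1941 CPM on day 2 (log2 fold change 4.60, SE 0.42, adjusted p = 2.76e-06). Top2a, the topoisomerase that untangles chromosomes, was at 32.9, 11.5 and 56.8 CPM on day 0 and 1474, 1377 and 1641 CPM on day 2 (log2 fold change 5.48, SE 0.43, adjusted p = 7.84e-07). Ccnb1, the mitotic cyclin, was at 2.89, 1.21 and 5.66 CPM on day 0 and 104, 100.4 and 105 CPM on day 2 (log2 fold change 5.00, SE 0.29, adjusted p = 9.47e-08). The day 2 libraries were close to each other in these genes, but on day 0 library 94 was highest and library 89 lowest in each of Mki67, Top2a and Rrm2. A low level of proliferation RNA was therefore present before culture and differed between the day 0 libraries. The largest rise among the 56 was that of Ube2c, an enzyme that marks cyclins for destruction (from 1.56 ± 1.74 to 72.8 ± 5.63 CPM), and the smallest that of Smc4, a condensin subunit (from 363 ± 21.2 to 508 ± 43.7 CPM, log2 fold change 0.48), which was not called under upper quartile scaling.

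The promoters of these groups are shown because their members moved together and carry short motifs known for cell cycle genes. Promoters were taken from a RefSeq table of GRCm38.p6, from 250 bases before to 50 after each start, and were matched by symbol for 1095 of 1423 listed genes. Motif letters were searched on both strands, and a match is a description of the letters and not of binding. The E2F motif was TTTCCCGC, TTTGGCGC, TTTCGCGC or TTTGCCGC. It was found in 33.3% of the replication promoters (17 of 51, 95% Wilson interval 22 to 47%) and in 2.26% of all 32851 promoters. Among tested genes it was in 6.34% of promoters of genes over 2-fold higher, 2.11% of those over 2-fold lower and 3.61% of the rest. The CHR motif, the cell cycle homology region, was TTTGAA or TTCGAA, and was found in 78.0% of the mitosis promoters (39 of 50, 64.8 to 87.2%) and in 19.2% of all. Among tested genes it was in 17.3% of promoters of genes over 2-fold higher, 15.9% of those over 2-fold lower and 13.1% of the rest. With only the bases before the start, these shares were lower, at 42.0% of the mitosis promoters and 17.1% of all for CHR and 21.6% of the replication promoters and 1.86% of all for E2F. The CCAAT box was in 72.0% of the mitosis promoters and in 37.4% of all. Stretches of 90 bases are printed 5′ to 3′ on the strand of the gene, the first 3 with the E2F motif in capitals and the next 3 with CHR and CCAAT letters in capitals on either strand.
Dnmt1 (GRCm38.p6, chr9:20952784-20952873, minus strand): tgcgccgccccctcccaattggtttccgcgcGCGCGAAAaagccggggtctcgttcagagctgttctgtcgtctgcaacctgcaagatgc
Uhrf1 (GRCm38.p6, chr17:56304070-56304159, plus strand): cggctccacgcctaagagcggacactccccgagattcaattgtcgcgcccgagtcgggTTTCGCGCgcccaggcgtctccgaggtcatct
Mcm7 (GRCm38.p6, chr5:138172017-138172106, minus strand): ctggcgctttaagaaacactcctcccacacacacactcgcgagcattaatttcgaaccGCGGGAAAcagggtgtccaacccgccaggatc
Mki67 (GRCm38.p6, chr7:135716446-135716535, minus strand): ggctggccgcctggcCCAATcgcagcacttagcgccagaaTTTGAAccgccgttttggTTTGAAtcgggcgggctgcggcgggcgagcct
Top2a (GRCm38.p6, chr11:99024190-99024279, minus strand): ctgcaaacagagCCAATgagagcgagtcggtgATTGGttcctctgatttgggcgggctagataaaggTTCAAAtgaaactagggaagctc
Smc2 (GRCm38.p6, chr4:52439018-52439107, plus strand): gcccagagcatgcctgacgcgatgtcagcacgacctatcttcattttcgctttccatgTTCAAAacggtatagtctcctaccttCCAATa
Dnmt1, Uhrf1 and Mcm7 had log2 fold changes of 1.67, 5.12 and 2.45, and Mki67, Top2a and Smc2 of 4.60, 5.48 and 2.99.

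Most cell cycle inhibitors and p53 targets rose beside the division genes. Cdkn1a, which encodes the inhibitor p21 and lies at chr17:29309936-29319701 on the plus strand of GRCm39, was at 0.457, 0.241 and 0.673 CPM on day 0 and 263, 303 and 213 CPM on day 2 (log2 fold change 9.13, SE 0.25, adjusted p = 2.71e-09). It had 3, 2 and 5 counts on day 0 and 2477, 2540 and 1893 counts on day 2, so the size of the fold is less certain than its direction. Of 24 p53 targets, 18 rose and 5 fell, with a median log2 fold change of 1.76. Zmat3 rose from 51.0 ± 3.02 to 364 ± 10.4 CPM, Ccng1 from 171 ± 20.6 to 817 ± 40.5 CPM and Phlda3 from 0.518 ± 0.347 to 39.8 ± 6.12 CPM. The death receptor Eda2r had 0, 0 and 0 counts on day 0 and 101, 91 and 48 counts on day 2, at least 19.7-fold higher, and Perp had 0, 0 and 1 counts on day 0 and 70, 51 and 19 counts on day 2. The 5 that fell were Rrm2b, which supplies nucleotides in resting cells (-2.19), Sesn1 (-1.80), Btg2, Gadd45a (-0.99, not called without library 88, with an adjusted p of 0.0568) and Ddb2 (-0.80). Among the BCL2 family, 10 of 14 rose and 2 fell. Survival and death genes both rose, among them Bcl2l1, which encodes the survival protein BCL-xL (from 24.4 ± 1.49 to 132 ± 25.0 CPM), and the death effectors Bax (from 18.6 ± 1.81 to 128 ± 10.1 CPM) and Pmaip1, which encodes NOXA (from 3.47 ± 1.34 to 45.8 ± 3.14 CPM). The 2 that fell were the abundant survival genes Bcl2 (from 484 ± 64.3 to 285 ± 31.3 CPM) and Mcl1 (from 551 ± 41.8 to 345 ± 28.4 CPM), and the summed level of the family overlapped between the days.

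A list of 15 senescence and secretory genes joined genes of markers named by the study, among them Spp1, Il6 and, by the activity of its enzyme, Glb1, some of them chosen on these samples, with general markers of senescence that it does not name. Its count is therefore not independent evidence of a direction. The genes were listed without a direction expected in senescence. A rise, that of Lmnb1 included, is therefore not read as a step towards it. Of the 15, 9 passed the filter, 7 rose and 2 fell. Those named by the study moved both ways. Pdcd1 and Tnfsf8, which rose, and Klrg1, which fell, are given above, and the chemokine receptor Ccr6, the other that fell, had 13, 11 and 21 counts on day 0 and 4, 4 and 0 counts on day 2 (log2 fold change -2.70). Mmp9, a matrix protease, had 9, 5 and 15 counts on day 0 and 0, 0 and 1 counts on day 2 and was removed by the filter. Glb1, which encodes the lysosomal beta-galactosidase, rose from 15 ± 0.497 to 66.1 ± 1.79 CPM (log2 fold change 2.14). Among the general markers, Cdkn1a is given above, Lmnb1, a lamina protein, rose from 36.7 ± 7.82 to 178 ± 35.3 CPM (2.28) and Hmgb1 from 179 ± 11.7 to 319 ± 31.1 CPM (0.83). Spp1, which encodes osteopontin, had 1, 0 and 2 counts on day 0 and 33, 27 and 20 counts on day 2, a ratio of levels of 22.3 (95% counting interval 7.35 to 110.0). Cdkn2a, which encodes p16, had 2, 0 and 1 counts on day 0 and 2, 7 and 5 counts on day 2, and Il6 had 0, 0 and 0 counts on day 0 and 0, 2 and 5 counts on day 2. Both were removed by the filter, so a change in them was not detectable at this depth.

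Genes for making proteins were higher on day 2 for the most part. Of 42 ribosome biogenesis genes, 38 rose and 0 fell, or 34 and 2 under upper quartile scaling. Npm1 (from 364 ± 32.4 to 1342 ± 126 CPM) and Ncl (from 429 ± 47.6 to 1062 ± 147 CPM), the abundant nucleolar proteins, were at their head, and Gar1, a small RNA-guided modification factor, rose the most (from 11.5 ± 0.522 to 53.2 ± 8.49 CPM, log2 fold change 2.20). Of 79 cytosolic ribosomal protein genes, 66 rose and 1, Rps27, fell (-0.40), with a median of 0.74. Without library 88, 94, 92 or 93 the adjusted p of Rps27 was 0.0851, 0.0901, 0.0616 and 0.0573. Under upper quartile scaling, which moved the median of all genes by -0.27, 50 rose and 2 fell and the median of the list was 0.465. These genes have many processed pseudogenes with which they share reads, so single members are uncertain. All 20 cytosolic aminoacyl-tRNA synthetases rose, among them Eprs1 (from 153 ± 13.9 to 342 ± 27.8 CPM) and Mars1 (from 29.5 ± 0.256 to 98.6 ± 4.25 CPM), although under upper quartile scaling 19 did.

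Of 48 translation factors, 40 rose and 5 fell. The elongation factor Eef2 rose from 2689 ± 189 to 6134 ± 613 CPM and the hypusinated factor Eif5a from 164 ± 20.6 to 740.3 ± 73.4 CPM. The 5 that fell include Pdcd4, an inhibitor of the helicase eIF4A (from 453 ± 23.5 to 135 ± 5.85 CPM), and Eif4a2, the helicase isoform of resting cells (from 612 ± 39.1 to 355 ± 58.2 CPM), whereas its relative Eif4a1 rose from 179 ± 27.0 to 368 ± 62.2 CPM. Eef1a1, the most abundant of them, was at 8270.4, 7780.0 and 8463 CPM on day 0 and 8421, 9359 and 9206 CPM on day 2 (adjusted p = 0.244). Genes for the breakdown and folding of proteins rose for the most part. All 36 proteasome genes rose, 31 over 2-fold, with a median of 1.39, led by Psmd8 (from 41.0 ± 0.781 to 209.9 ± 16.5 CPM). Of 31 chaperonin and cytosolic heat shock genes, 21 rose and 5 fell. All subunits of the chaperonin CCT that were listed rose, such as Tcp1 (from 161 ± 5.85 to 515 ± 19 CPM) and Cct2 (from 168 ± 14.9 to 457 ± 22.2 CPM), and the mitochondrial pair Hspd1 (from 136 ± 15.4 to 499.7 ± 57.0 CPM) and Hspe1 (from 64.4 ± 5.23 to 169 ± 20.3 CPM) rose with them. The 5 that fell were heat-inducible genes and their activator, Hspa1b (3.50, 6.03 and 34.1 CPM on day 0 and 3.71, 5.73 and 3.38 CPM on day 2), Hsph1 (-1.17), Dnaja1 (-1.13), Dnajb1 (-0.85) and Hsf1 (-0.78). The day 0 values of Hspa1b came mostly from library 94, and without it the log2 fold change was -0.17 (edgeR adjusted p = 0.684). Without library 92, 93 or 97 the adjusted p was 0.101, 0.0569 and 0.0941. In the endoplasmic reticulum, 17 of 24 genes rose and 3 fell, with P4hb (from 100.3 ± 13.5 to 426 ± 35.4 CPM) and Pdia6 (from 55.5 ± 8.37 to 247 ± 17.5 CPM) up and Dnajb9 (from 57.0 ± 19.8 to 12.3 ± 1.80 CPM), Herpud1 (-0.79) and Dnajc3 (-0.61) down.

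Genes of glucose use rose together. All 24 genes of glycolysis and glucose uptake were higher on day 2, 22 of them over 2-fold, with a median of 2.30, and their summed level ranged between 2234 and 2396 CPM on day 0 and between 13314 and 14586 CPM on day 2. Hk2, the inducible hexokinase, was at 2.13, 0.844 and 1.48 CPM on day 0 and 126, 122 and 123 CPM on day 2 (log2 fold change 6.41, SE 0.19, adjusted p = 3.56e-09). Slc2a1, which encodes the glucose transporter GLUT1, was at 27.4, 34.6 and 26.9 CPM on day 0 and 124, 136 and 144 CPM on day 2 (log2 fold change 2.18, SE 0.12, adjusted p = 8.02e-08). Ldha, which makes lactate, was at 270.0, 230.2 and 279 CPM on day 0 and 1386, 1548 and 1551 CPM on day 2 (log2 fold change 2.52, SE 0.11, adjusted p = 1.43e-08). Along the pathway, Tpi1 rose from 19 ± 4.21 to 688 ± 86.6 CPM, Gapdh from 195 ± 2.50 to 1468 ± 179 CPM, Pgk1 from 94.3 ± 18.8 to 1539 ± 73.2 CPM and Pkm from 378 ± 10.1 to 2791 ± 281 CPM, and the lactate exporter Slc16a3 from 4.05 ± 0.827 to 129.9 ± 8.90 CPM. Hif1a, the factor that raises these genes in many cells, rose from 150.4 ± 15.1 to 1288 ± 185 CPM (log2 fold change 3.10). Tpi1 and Gapdh have processed pseudogenes that may share their reads.

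Most genes of one-carbon and amino acid metabolism were higher too. Of 21 genes of the pentose phosphate and one-carbon pathways, 18 rose and 1, the folate carrier Slc25a32, fell (-0.41). Mthfd2, the mitochondrial folate enzyme, was at 29.8, 26.3 and 35.8 CPM on day 0 and 69.0, 60.1 and 74.4 CPM on day 2 (log2 fold change 1.15, SE 0.14, adjusted p = 2.02e-05). Shmt1 rose from 13.7 ± 1.52 to 80.2 ± 22.4 CPM, Psat1 from 21.9 ± 2.56 to 150.5 ± 13.4 CPM and Phgdh from 27.8 ± 6.60 to 97.4 ± 8.54 CPM, which feed serine into the pathway. Of 12 amino acid transporters tested, 9 rose and 1, the lysosomal sensor Slc38a9, fell (-0.66). Slc7a5, the large neutral amino acid transporter LAT1, was at 25.3, 22 and 25.2 CPM on day 0 and 70.3, 72.6 and 81.6 CPM on day 2 (log2 fold change 1.63, SE 0.11, adjusted p = 3.44e-07), and the glutamine transporter Slc1a5 rose from 69.9 ± 8.43 to 308 ± 35.2 CPM (2.14). Of 19 targets of ATF4, the factor of the amino acid response, 14 rose and 2 fell, the latter being Ddit4 (-0.65), whose adjusted p was 0.124, 0.154, 0.0834, 0.0848 and 0.0667 without library 88, 94, 92, 93 or 97, and Cbs (-0.92). Asns, asparagine synthetase, was at 0.913, 0.724 and 0.943 CPM on day 0 and 23.3, 18.6 and 19 CPM on day 2 (log2 fold change 4.55, SE 0.24, adjusted p = 4.68e-08). The amino acid response element, TGATGNAA, was in 30.4% of the promoters of this list (7 of 23, 95% Wilson interval 15.6 to 50.9%) and in 3.97% of all promoters. It is shown in capitals, on either strand, in 2 members that rose, Asns and the lipoprotein receptor Vldlr, which had 0, 1 and 0 counts on day 0 and 94, 97 and 57 counts on day 2.
Asns (GRCm38.p6, chr6:7693210-7693299, minus strand): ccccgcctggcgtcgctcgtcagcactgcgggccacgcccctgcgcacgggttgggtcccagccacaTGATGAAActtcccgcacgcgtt
Vldlr (GRCm38.p6, chr19:27216770-27216859, plus strand): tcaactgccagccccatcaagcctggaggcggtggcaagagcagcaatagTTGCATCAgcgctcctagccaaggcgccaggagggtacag

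Most genes of lipid synthesis rose. Of 28 genes of cholesterol synthesis and uptake, 25 rose and 3 fell, with a median of 2.48. The pathway rose from its entry enzyme Hmgcs1 (from 46.0 ± 6.02 to 636 ± 19.3 CPM) through Idi1, which had the largest rise (from 21.6 ± 1.97 to 417 ± 43.6 CPM), and Cyp51 (from 30.4 ± 3.02 to 511 ± 57.7 CPM). Sqle, squalene epoxidase, was at 15.2, 17.7 and 14.1 CPM on day 0 and 145, 164 and 160.2 CPM on day 2 (log2 fold change 3.31, SE 0.12, adjusted p = 6.26e-09). Those that fell included the exporters Abca1 (from 48.4 ± 12.1 to 11.3 ± 4.12 CPM) and Abcg1 (119.6, 136 and 149 CPM on day 0 and 15.1, 15.4 and 13.7 CPM on day 2), both targets of LXR. The sterol regulatory element TCACNCCAC was in 1 of 23 promoters of this list (4.35%) and in 1.24% of all, a share whose interval, 0.772 to 21.0%, covers that of all promoters. Of 13 genes of fatty acid synthesis, 12 rose over 2-fold and 1, Elovl5, fell (-0.72). The desaturases had its largest rises. Scd2 was at 29.1, 30.6 and 45.9 CPM on day 0 and 1681, 1749.5 and 1600.0 CPM on day 2 (log2 fold change 5.57, SE 0.18, adjusted p = 3.56e-09), Scd1 rose from 0.422 ± 0.405 to 85.7 ± 36.8 CPM and Fads2 was at 0.457, 0.121 and 0.135 CPM on day 0 and 84.8, 109.9 and 88.9 CPM on day 2. Fasn, fatty acid synthase, rose from 173 ± 11.7 to 812 ± 113 CPM. In fatty acid oxidation, by comparison, 12 of 21 rose and 3 fell, and Cpt1a, the gatekeeper of that pathway, fell from 148 ± 3.07 to 65.5 ± 12.3 CPM (-1.17).

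Most mitochondrial genes encoded in the nucleus rose. Of 76 nuclear genes of the respiratory chain, 72 rose and 0 fell, with a median log2 fold change of 1.26, from Atp5f1b (from 333 ± 18.2 to 1035 ± 88.8 CPM) to Ndufb6 (from 7.30 ± 2.12 to 33.1 ± 3.81 CPM), and 4 did not pass edgeR's test. Of the 13 messenger RNAs encoded in mitochondria, 7 rose, 0 fell and 6 did not pass, with a median of 0.36, and mt-Co1, the most abundant, was at 6953, 9384 and 7702 CPM on day 0 and 8790.3, 10249 and 8264 CPM on day 2 (adjusted p = 0.243, or 0.038 without library 89). Under upper quartile scaling only 2 of these 13 rose. The difference between nuclear and mitochondrial genes was not tested. Of 77 mitochondrial ribosomal proteins, 64 rose and 2 fell, and of 31 genes of the tricarboxylic acid cycle and glutaminolysis, 22 rose and 1, Me2, fell (-0.29, not called without library 93, with an adjusted p of 0.0701). Gls2, a glutaminase, rose from 0.714 ± 0.619 to 8.76 ± 2.74 CPM. Of 21 antioxidant genes, 14 rose, such as thioredoxin Txn1 (from 14.3 ± 4.17 to 136 ± 20.3 CPM) and peroxiredoxin Prdx1 (from 79.5 ± 8.70 to 202 ± 29.4 CPM), and 4 fell, Prdx6 (-0.65), Gclc (-0.66), the factor Nfe2l2 (-0.59) and catalase.

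**Figure D4:**
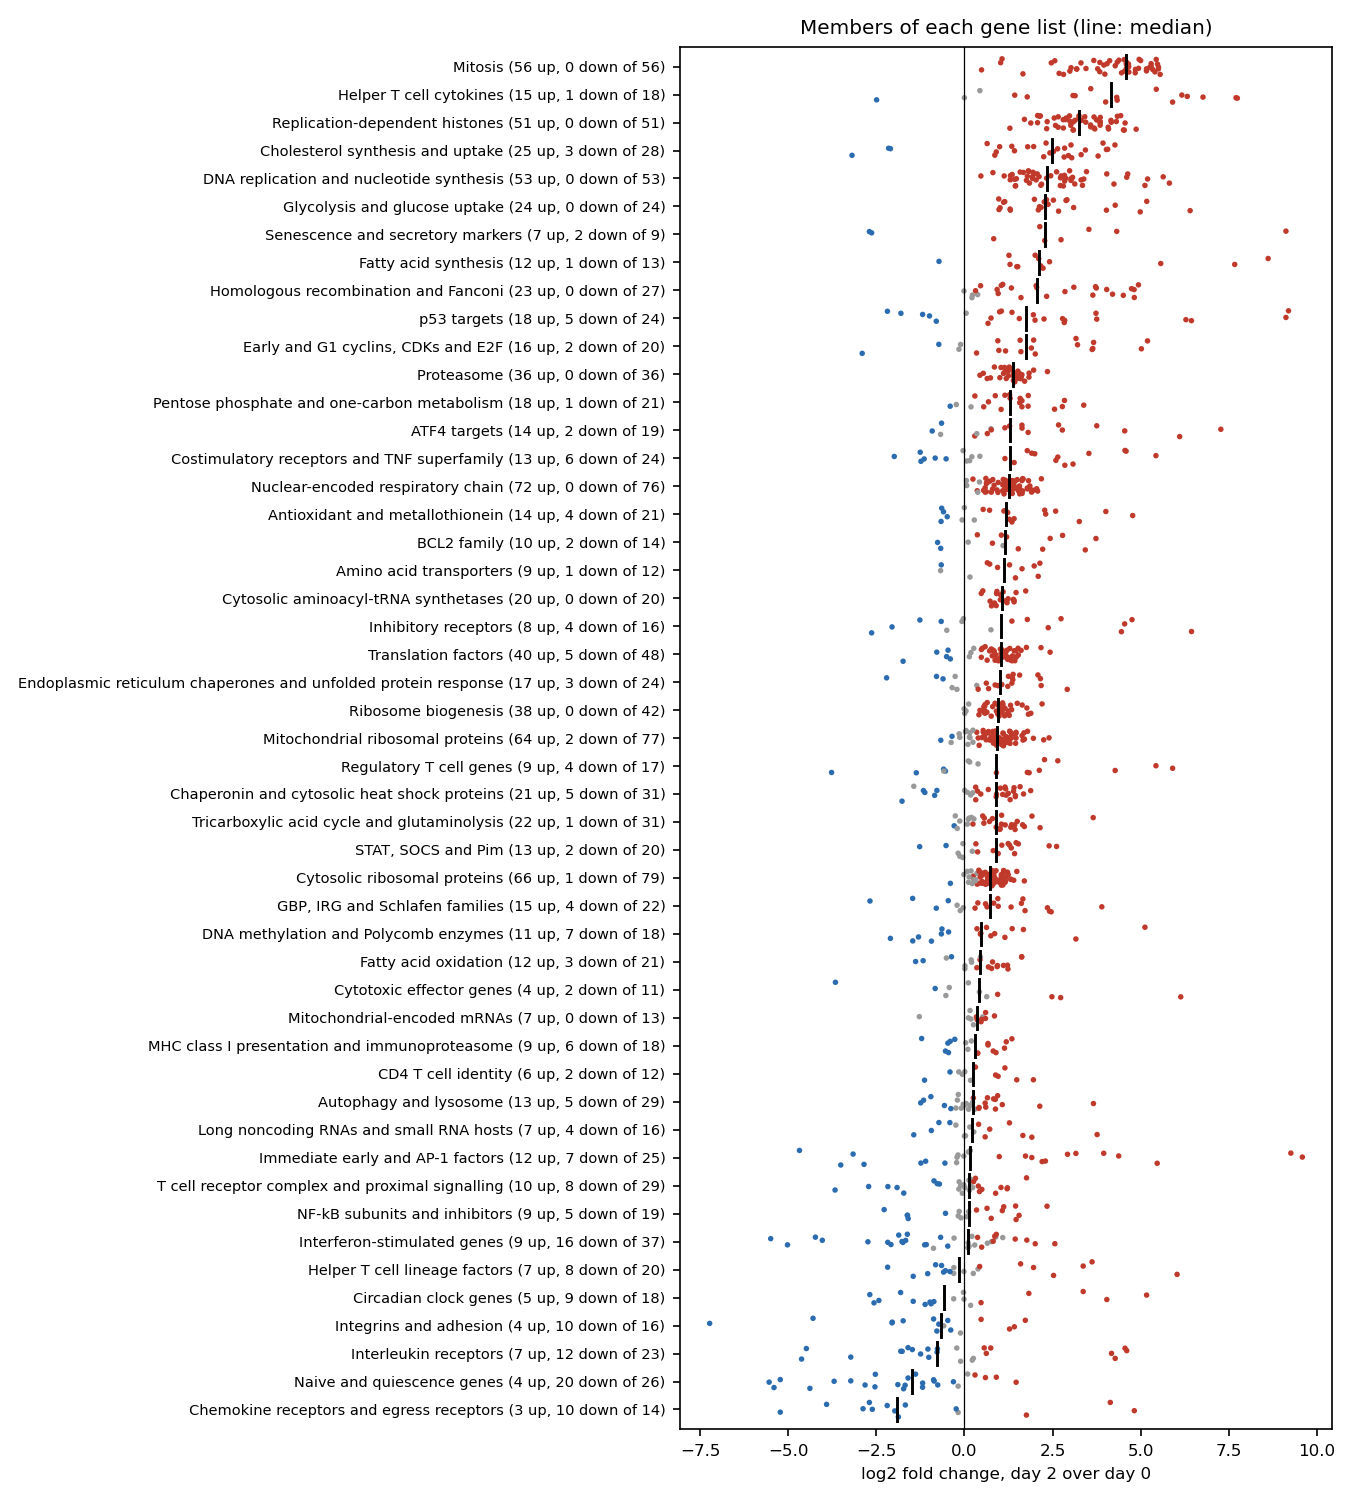
Log2 fold change of day 2 over day 0 of each tested member of the gene lists (points; red where higher and blue where lower at an adjusted p under 0.05, grey where not), with the median as a line and lists ordered by it. Lists with under 8 tested members and markers of other cell types are left out, and among those drawn mitosis stands at the top with a median of 4.57 and chemokine and egress receptors at the bottom with a median of -1.93.

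The factors that define helper lineages did not share a direction. Of 20 tested, 7 rose and 8 fell, beside 36.2% higher and 34.7% lower over all genes tested. That count is not read as a trait of these factors. Irf4, whose level scales with TCR signal and which is required for effector differentiation, was at 26.0, 20.1 and 33.0 CPM on day 0 and 1776, 1659 and 1751 CPM on day 2 (log2 fold change 6.04, SE 0.17, adjusted p = 3.56e-09), the largest rise of the list. Tbx21, which encodes T-bet, the factor of type 1 cells, was at 14, 7.72 and 13.6 CPM on day 0 and 56.5, 72.1 and 73.8 CPM on day 2 (log2 fold change 2.53, SE 0.20, adjusted p = 9.01e-07). Gata3, the factor of type 2 cells, was at 78.7, 68.2 and 73.0 CPM on day 0 and 260.2, 236 and 166 CPM on day 2 (log2 fold change 1.59, SE 0.15, adjusted p = 3.97e-06). Irf8 rose from 8.80 ± 3.92 to 107 ± 26.1 CPM, Bhlhe40 from 15.1 ± 4.45 to 155 ± 27.9 CPM and Ahr from 7.63 ± 2.49 to 29.8 ± 2.92 CPM. Bcl6, the factor of follicular helper cells, was at 18.7, 24.4 and 17.9 CPM on day 0 and 17.4, 28.7 and 14.5 CPM on day 2 (adjusted p = 0.956). Those that fell included Eomes (from 4.65 ± 1.84 to 1.01 ± 0.0531 CPM), Rora (from 62.7 ± 16.5 to 22.8 ± 4.26 CPM), Maf (from 71.7 ± 22 to 34.6 ± 11.4 CPM) and Runx1 (from 189 ± 7.41 to 120.3 ± 15.8 CPM). Eomes was also 1 of the listed CD8 T and NK cell markers that fell.

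Of 17 genes of regulatory T cells, 9 rose and 4 fell. Foxp3, the factor that defines them, was at 66.2, 59.4 and 48.5 CPM on day 0 and 36.0, 42.2 and 41.3 CPM on day 2 (log2 fold change -0.54, SE 0.13, adjusted p = 0.00334), a modest fall. Ikzf2, which encodes Helios, fell from 173 ± 41.9 to 115 ± 10.8 CPM (log2 fold change -0.59), Nrp1 fell from 57.1 ± 19.2 to 22.1 ± 4.92 CPM (-1.37), and Nt5e, which encodes the ectonucleotidase CD73, fell from 62.3 ± 17.5 to 4.54 ± 0.817 CPM (-3.77). Those that rose included Il2ra, Tnfrsf9, Tnfrsf18, Ctla4 and Il10, which activated conventional T cells also express, and Izumo1r, the folate receptor 4 (from 57.3 ± 6.82 to 204 ± 21.8 CPM), and Capg (from 42.1 ± 6.93 to 183 ± 23 CPM). Of 11 cytotoxic effector genes tested, 4 rose and 2 fell, and without library 89 of day 0 4 rose and 5 fell of 12 tested. Gzmb, granzyme B, was at 0.609, 0.362 and 1.75 CPM on day 0 and 75.7, 53.8 and 63.7 CPM on day 2 (log2 fold change 6.14, SE 0.30, adjusted p = 3.03e-08). Prf1, which encodes the pore that granzymes need, was at 49.3, 52.7 and 37.0 CPM on day 0 and 2.23, 3.82 and 4.96 CPM on day 2 (log2 fold change -3.66, SE 0.24, adjusted p = 1.96e-07). Granzyme B and perforin RNA thus moved in opposite directions in all 3 day 2 libraries. Of the 5 CD8 T and NK cell markers tested, 3 also fell, Klrd1 (-3.13), Klrk1 (-1.27) and Eomes (-2.18), and 0 rose. Whether the fall of Prf1 came from such cells was not tested. Srgn, the proteoglycan of secretory granules, rose from 152 ± 13.3 to 847 ± 118 CPM, and Fasl fell.

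Interferon-stimulated genes moved in both directions. Of 37 tested, 9 rose, 16 fell and 12 did not pass the test, and the median of 0.10 had the opposite sign to the count and turned negative, to -0.17, under upper quartile scaling and, to -0.45, without library 92 of day 2. Without library 93 of day 2 the counts were nearly even, with 14 higher and 15 lower. The falls reached further than the rises. Samd9l, an antiviral factor, was at 369, 382 and 338 CPM on day 0 and 17.3, 4.89 and 10.9 CPM on day 2 (log2 fold change -5.02, SE 0.30, adjusted p = 1.04e-07). Ddx60, a helicase-like sensor cofactor, fell from 50.8 ± 3.97 to 3.01 ± 2.60 CPM (-4.04), Rtp4 from 10.0 ± 1.89 to 0.508 ± 0.420 CPM (-4.23) and Rigi, which encodes the RNA sensor RIG-I, from 135 ± 12.0 to 39.5 ± 12.7 CPM (-1.77). Oas2, a synthetase that activates RNase L, had 30, 57 and 43 counts on day 0 and 0, 0 and 3 counts on day 2. Irf7, the factor that amplifies the response, fell from 42.8 ± 2.12 to 13.8 ± 8.66 CPM (-1.62). In the other direction, Ifi27l2a rose from 32.4 ± 7.42 to 192 ± 44.7 CPM (2.57), the kinase Eif2ak2 from 9.71 ± 2.17 to 38.7 ± 21.6 CPM (2.01) and the tetherin gene Bst2 from 10.2 ± 1.52 to 27.5 ± 10.7 CPM (1.44). The interferon-stimulated response element, searched as GAAANNGAA, was in 54.5% of the promoters of this list (18 of 33, 95% Wilson interval 38.0 to 70.2%) and in 8.56% of all. It is printed in capitals for a gene that fell, Ddx60, and a gene that rose, Bst2, to show that both carry matches, which overlap each other in Bst2.
Ddx60 (GRCm38.p6, chr8:61927997-61928086, plus strand): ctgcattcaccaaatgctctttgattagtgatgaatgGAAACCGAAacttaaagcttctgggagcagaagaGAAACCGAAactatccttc
Bst2 (GRCm38.p6, chr8:71537565-71537654, minus strand): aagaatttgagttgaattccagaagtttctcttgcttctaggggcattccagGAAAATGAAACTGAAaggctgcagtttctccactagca

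The guanylate-binding proteins and immunity-related GTPases, which respond to interferon gamma, were higher for the most part. Of 22 tested in the GBP, IRG and Schlafen families, 15 rose and 4 fell. Gbp2b rose from 70.8 ± 2.78 to 1057 ± 217 CPM (log2 fold change 3.90), Gbp2 from 82.2 ± 1.94 to 439 ± 74.7 CPM (2.42), Gbp5 from 43.2 ± 5.13 to 221 ± 32.4 CPM (2.36) and Iigp1 from 61.6 ± 6.39 to 339 ± 109.5 CPM (2.46). The 4 that fell were Slfn5 (from 124 ± 10.2 to 19.2 ± 7.40 CPM), Slfn8 (from 176 ± 7.81 to 63.3 ± 18.4 CPM), Gbp8 (-0.80) and Slfn1 (-0.46). Members of these families are similar in sequence, so their reads could be split. Of 18 genes of MHC class I presentation, 9 rose and 6 fell. The peptide transporter Tap1 (from 226 ± 14.4 to 421 ± 56.0 CPM) and the immunoproteasome subunit Psmb9 (from 61.7 ± 8.33 to 157 ± 15.2 CPM) rose, while Psmb10 fell (from 42.7 ± 4.65 to 18.3 ± 1.22 CPM), and the heavy chain H2-D1 went from 1508 ± 72.9 to 1139.6 ± 28.9 CPM (-0.40). Under upper quartile scaling the list counted 7 higher and 7 lower.

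Beyond the lists, the 12 largest rises were taken among protein-coding genes with a mean of at least 10 CPM and groups apart, so the values that follow are a description. Akr1c18, a reductase that inactivates progesterone, at chr13:4182614-4200672 on the minus strand, had 0, 0 and 0 counts on day 0 and 533, 572 and 801 counts on day 2, at least 157-fold higher. Edn1, which encodes the peptide endothelin, had 0, 0 and 0 counts on day 0 and 401, 411 and 240 counts on day 2, at least 86.6-fold higher. Myh7, a myosin heavy chain of slow muscle, had 0, 1 and 0 counts on day 0 and 719, 724 and 529 counts on day 2, a ratio of 1650.0 (95% counting interval 295 to 65100.0). These are genes better known from other tissues, and they were counted in each of the 3 day 2 libraries. Tg, the thyroglobulin gene, had a ratio of day 2 to day 0 levels of 1020.0 (95% counting interval 282 to 8440.0), and Lipg, an endothelial lipase, had 1, 0 and 0 counts on day 0 and 259, 312 and 267 counts on day 2. Crabp2, a carrier of retinoic acid, had 0, 0 and 1 counts on day 0 and 267, 286 and 140 counts on day 2, and Trim66 had 2, 0 and 0 counts on day 0 and 229, 189 and 167 counts on day 2. Gja1, which encodes the gap junction protein connexin 43, was at 0.304, 0.483 and 0.539 CPM on day 0 and 198, 214 and 129 CPM on day 2 (log2 fold change 8.60, SE 0.30, adjusted p = 5.47e-09). Map3k20, a stress kinase that senses stalled ribosomes, was at 0.304, 0.121 and 0.808 CPM on day 0 and 119, 88.3 and 64.3 CPM on day 2 (log2 fold change 7.76, SE 0.39, adjusted p = 3.17e-08). Atf3, Cdkn1a and Fads2, given above, complete the 12 highest.

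The 12 largest falls by the same rule include Tsc22d3, S1pr1, Samd9l, Fosb and Il18r1, given above. Ifit1bl1, an interferon-induced gene, had 117, 189 and 152 counts on day 0 and 1, 2 and 0 counts on day 2, and Ifi208, of the family that senses DNA, was at 79.2, 96.5 and 77.8 CPM on day 0 and 0.636, 0.119 and 1.24 CPM on day 2 (log2 fold change -6.94, SE 0.29, adjusted p = 1.12e-08). Rasgrp2, the activator of the GTPase Rap1 in resting T cells, was at 245, 283 and 224 CPM on day 0 and 5.30, 6.08 and 6.31 CPM on day 2 (log2 fold change -5.41, SE 0.14, adjusted p = 2.71e-09). Rapgef4, another activator of Rap1 that responds to cyclic AMP, was at 57.8, 79.4 and 63.8 CPM on day 0 and 2.01, 1.91 and 1.35 CPM on day 2 (log2 fold change -5.24, SE 0.20, adjusted p = 7.57e-09). Atp8a2, a lipid flippase, was at 21.3, 18.3 and 31.9 CPM on day 0 and 0.106, 0.477 and 0.225 CPM on day 2, and Slc16a5, a transporter of the monocarboxylate family, at 31.5, 42.0 and 26.4 CPM on day 0 and 0.742, 0.477 and 0.563 CPM on day 2. Gm1043 was at 35.6, 44.4 and 30.8 CPM on day 0 and 0.636, 0.596 and 1.69 CPM on day 2. 

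The same comparison in the LIP mice gave a repeat in libraries that the control comparison did not use. Of the 3068 genes over 2-fold higher in the controls, 2845 were tested there, and 2671 of these (93.9%) were called in the same direction and 0 in the opposite one, beside 36.1% of all genes called higher in LIP mice. Of the 2701 over 2-fold lower, 2553 were tested, and 2364 (92.6%) were called in the same direction and 2 in the opposite one, beside 35.4% of all genes called lower there. Over 14026 genes tested in both, Pearson's r of the log2 fold changes was 0.935, as a description across genes, which are not independent replicates. An interaction of group and day was called for 8 of 15475 genes (0.0517%), and 2464 had an unadjusted p under 0.05. The 7 of those 8 that were also called in the controls are given in the closing section, and among them Hsp90ab1, Hspa8 and Eif2s2 act in protein folding or translation.

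**Figure D5:**
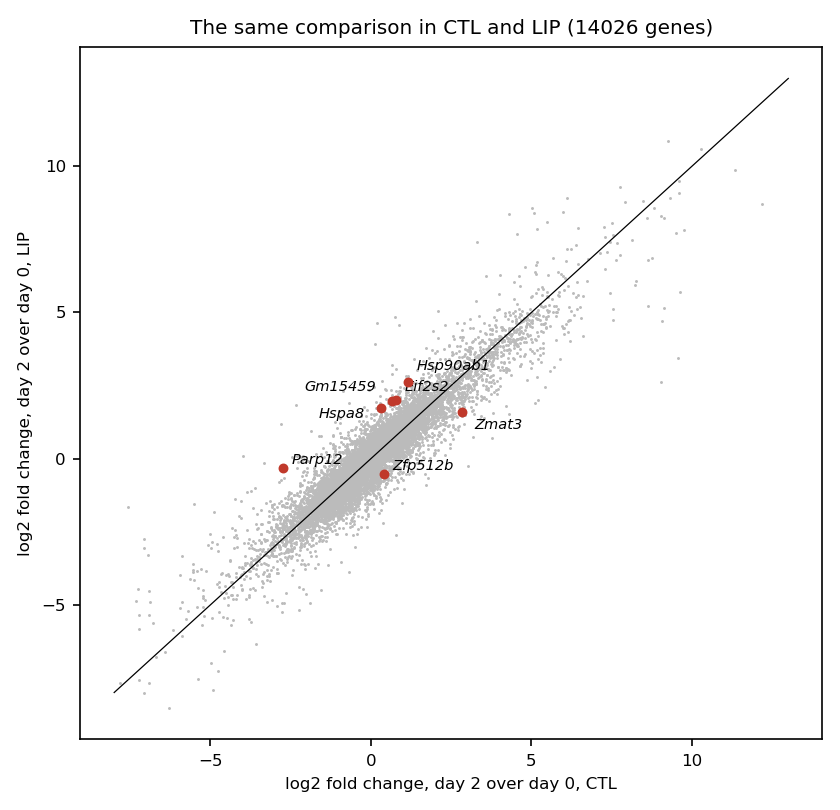
Log2 fold change of day 2 over day 0 in LIP mice (vertical axis) against that in control mice (horizontal axis) for the 14026 genes tested in both, with the line of equality. Points lie along the line, and the 7 genes called in the controls and in the test of interaction are red.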

How the data were processed

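CD4+ T cells were purified from spleen by magnetic negative selection, and total RNA was sequenced as directional libraries after depletion of ribosomal RNA. Per the labels, the authors trimmed reads with Trimmomatic 0.38 (the methods of the study name another version), checked them with FastQC 0.11.9 and quantified genes of GRCm39 with RSEM 1.3.0 and Bowtie2, and the methods also name HISAT2 and edgeR. The authors deposited a table of expected counts per gene, which RSEM estimates by sharing reads among similar transcripts, so near-identical genes are uncertain. Whether strand was used in counting is not given in the sources used here. Other deposited tables hold the authors' normalized values, fold changes and p-values for LIP against CTL and were not used; 2 of their columns could not be mapped to a sample.

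Expected counts were rounded to whole numbers, genes were filtered with filterByExpr and scaled by TMM over the 6 control libraries, and day 2 was tested against day 0 with edgeR 4.0.16's quasi-likelihood test in R 4.3.3, with Benjamini-Hochberg adjustment at 0.05. A log2 fold change is of day 2 over day 0, and SE is its standard error. The test was repeated in the LIP libraries, and a term for whether the day effect differed between CTL and LIP was tested over all 12. The alternatives were RLE factors, upper quartile scaling, library size alone, no filter, at least 10 counts in every library, DESeq2 1.42.0, limma-voom (limma 3.58.1), all 12 libraries, protein-coding genes and leaving out each library. For genes at 0 counts on one day, a lower bound of the fold used 3 counts per library there, and for 1 to 3 counts an exact 95% counting interval was used. Gene types and positions came from the GENCODE M39 annotation of GRCm39. The scripts were tested on simulated data in which 200 genes changed, evenly up and down. That test does not bear on the choice of scaling under a change as wide as the one here. Data handling used the R package data.table (version 1.17.8), Python 3.11.15, pandas 2.3.3, scipy 1.17.1 and matplotlib 3.10.9.

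The comparison and the gene lists were chosen with earlier results of these data known. Named genes are the 12 highest and 12 lowest protein-coding genes with an adjusted p under 0.05, groups apart and a mean of at least 10 CPM, a fixed set of key genes, and, for each list, the 2 highest in level, the largest rise and fall and members that went against the list. Some genes that the rule names are not reported here, and others were chosen after their values were seen.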

Additional observations from a re-analysis of the deposited data

Results flagged for a closer look

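The change from day 0 to day 2 differed between control and LIP mice, by a test of that difference in edgeR over all 12 libraries, for 7 genes that were also called in the controls. Hsp90ab1, a cytosolic chaperone, rose by 1.15 in the controls and 2.62 in LIP mice on the log2 scale, a difference of 1.46 (adjusted p = 0.000672). Scaled over all 12 libraries, it was at 1305, 1348 and 1184 CPM on day 0 and 2629.5, 3004 and 3005 CPM on day 2 in the controls, and at 592, 586 and 617 CPM and then 3639, 3798 and 3687 CPM in LIP mice, so the LIP values were below the controls on day 0 and above them on day 2. Hspa8, the constitutive HSP70, changed by 0.32 and 1.74, a difference of 1.42 (adjusted p = 0.0168). In the controls its own call was lost under upper quartile scaling (adjusted p = 0.704), with library size alone (0.224), with protein-coding genes only (0.177) and without library 88 (adjusted p = 0.101), 93 (0.057) or 97 (0.0753). Eif2s2, a subunit of the initiation factor that brings the first tRNA, changed by 0.79 and 2.02, a difference of 1.22 (adjusted p = 0.0192). Gm15459, which shares reads with similar copies and is uncertain, changed by 0.65 and 1.96, a difference of 1.3 (adjusted p = 0.0230). Parp12, an interferon-induced gene, changed by -2.74 and -0.31, a difference of 2.42 (adjusted p = 0.0136). Zmat3, a p53 target, changed by 2.83 and 1.58, a difference of -1.25 (adjusted p = 0.0273). Zfp512b, a zinc finger gene, changed by 0.40 and -0.54, a difference of -0.94 (adjusted p = 0.0263), and its call in the controls was lost under upper quartile scaling (0.12, adjusted p = 0.302), with library size alone (0.23, 0.077) and with protein-coding genes only (0.24, 0.0549). The 3 libraries of each day in a group were too few to test any of them for standing apart.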

How the results depend on the processing

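No paired analysis was possible because the control day 0 libraries (88, 89 and 94) and the day 2 libraries (92, 93 and 97) share no number. The counts of called genes stayed within 1.5 times those of the main setting under every alternative run, from 4183 to 6131 higher and 4081 to 6510 lower. The number of genes tested differed too, with 11590 in the run on protein-coding genes that gave 4081. Leaving out a library gave 5066 to 5330 higher and 4721 to 5006 lower. DESeq2 called 5086 and 4616 and limma-voom 5277 and 5058. Of the 354 named genes, 329 kept their direction and side of the threshold in every alternative that tested them (285 were tested with at least 10 counts in every library, 346 with protein-coding genes only and all in the others), none reversed, 16 lost their call in at least 1 and 9 gained one. Those lost included Cd27, Cd3g, Dapl1, Ddit4, Hspa1b, Hspa8, Me2, Rps27, Slfn2 and Zfp512b, and those gained, mostly under upper quartile scaling or library size alone, included Ccnd2, Ccr7, Cd4, Lck and Stat5b as lower. Upper quartile scaling turned the list medians of interferon-stimulated genes (-0.17), immediate early and AP-1 factors (-0.11), autophagy (-0.040), TCR signalling (-0.14), NF-kB (-0.15), CD4 identity (-0.028), plasma cell markers (-0.015) and noncoding RNAs (-0.064) below 0, and library size alone those of interferon-stimulated genes (-0.065), immediate early factors (-0.0020), TCR signalling (-0.041) and NF-kB (-0.049). Upper quartile scaling also raised the falls from 2 to 5 for STAT, SOCS and Pim genes, 3 to 6 for endoplasmic reticulum genes, 4 to 7 for the GBP, IRG and Schlafen families, 3 to 5 for fatty acid oxidation, 1 to 4 for the tricarboxylic acid cycle and 2 to 5 for mitochondrial ribosomal proteins, whose falls were 0 or 1 without library 88 or 94 of day 0 or 92 or 93 of day 2. With library size alone the summed level on day 2 over day 0 fell to 0.943 for TCR signalling, 0.937 for interleukin receptors, 0.892 for the BCL2 family, 0.945 for MHC class I and 0.908 for clock genes, all from 1.00 to 1.06. Leaving out a library moved the medians of B cell markers from -1.76 to 0.82, immediate early factors from -0.045 to 0.76, interferon-stimulated genes from -0.45 to 0.23, plasma cell markers from -0.067 to 0.44 and cytotoxic genes from -0.062 to 0.50, and libraries 94 of day 0, 92 of day 2 and 97 of day 2 turned the medians of immediate early, interferon-stimulated and cytotoxic genes in that order. With only the bases before the start, the CHR share of mitosis promoters was 42.0% and the E2F share of replication promoters 21.6%. The E-box (CACGTG) share of ribosome biogenesis promoters was 4.44% there, beside 6.02% of all promoters. In the whole window it was 22.2%, beside 7.15% of all. Without LIP library 90 of day 2, an alternative chosen after seeing the data, 2658 of 2832 rising and 2372 of 2626 falling genes were called in the same direction in LIP mice.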

Other observations

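Genes of DNA methylation and of the Polycomb complexes moved in both directions. Of 18 tested, 11 were higher on day 2 and 7 lower, and under upper quartile scaling 7 and 7. Ezh2, the catalytic subunit of Polycomb complex 2 in dividing cells, rose from 31.5 ± 5.22 to 282 ± 17.5 CPM (log2 fold change 3.16). Ezh1, its counterpart of resting cells, fell from 102 ± 2.80 to 41.3 ± 3.26 CPM (-1.30), and Cbx7, a reader of the Polycomb mark, fell from 63.0 ± 12.0 to 14.7 ± 0.819 CPM (-2.10). Of the TET enzymes, which oxidise methylated DNA, Tet1 fell from 39.6 ± 10.1 to 14.4 ± 1.23 CPM (-1.47).

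Among 18 clock genes, 9 fell and 5 rose. The repressors Nr1d1 (from 4.93 ± 1.22 to 0.910 ± 0.278 CPM) and Nr1d2 (from 61.2 ± 5.79 to 9.48 ± 2.33 CPM) and the output factor Dbp (from 12.4 ± 2.18 to 3.53 ± 0.676 CPM) fell, while Npas2 rose from 2.26 ± 0.577 to 37.9 ± 9.08 CPM and Bhlhe41 had 1, 1 and 0 counts on day 0 and 30, 43 and 27 counts on day 2. The hour at which cells were taken is not given in the sources used here, and the days cannot be told apart from it. Of 29 autophagy and lysosome genes, 13 rose and 5 fell (10 and 8 under upper quartile scaling), with Gabarapl1 (from 1.10 ± 0.412 to 14.3 ± 0.824 CPM) at one end and Ctss, a cathepsin (from 60.7 ± 7.05 to 25.6 ± 8.04 CPM), at the other, and the median of 0.23 turned to -0.04 under upper quartile scaling. Of 16 noncoding RNA genes, 7 rose and 4 fell, but 5 rose and 5 fell under upper quartile scaling, and 2 fell without library 88 or 94 of day 0 or library 92 of day 2. Mir155hg, the host of the activation-induced miR-155, rose from 1.82 ± 0.416 to 24.6 ± 7.84 CPM, and Neat1 fell from 300.3 ± 40.1 to 156 ± 30.0 CPM.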
